A study of Mus musculus with 16 samples.

Results

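Described here are 8 genes for which separate probes of the same gene gave opposite answers when kidney was set against liver. They are Calm3, Cndp2, Kifc3, Nrxn2, Scarb2, Slco2b1, St13 and Wwp2, 8 of 9669 genes that had a probe with a single gene symbol. Each has at least 1 probe that passed the test as higher in kidney and at least 1 that passed as higher in liver. This choice used the measured kidney and liver ratios, so those ratios are given for the 8 genes as a description, with no test. The genes hold 19 of the 20419 probes on the array. Calm3, St13 and Wwp2 have 3 probes and the other 5 genes have 2, and every probe was kept apart and never averaged with another of its gene.

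The RNA came from the left kidney and the dorsal liver lobe of 3 male wildtype mice of the inbred strain C3HeB/FeJ, aged 105 ± 5 days, with no treatment named. On 7 arrays a kidney of mouse 1, 2 or 3 (3, 3 and 1 arrays) was hybridised together with a pool of 5 livers, and on 9 arrays a liver of the same mice (3 arrays each) was hybridised together with a pool of 5 kidneys. Repeat arrays of an animal's organ hold the same RNA and were averaged, which left 6 averages, 3 from kidney arrays and 3 from liver arrays. Each of the 16 arrays had a value for 15480 to 19432 probes. All signed values are log2 ratios of kidney over liver, so a value above 0 is higher in kidney, and fold changes are the same ratios on a linear scale.

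A cDNA array carries spotted copies of cloned transcripts, and a spot binds any labelled cDNA that shares its sequence. Several spots can carry the same gene symbol while lying on different stretches of a transcript, on different splice forms or 3′ ends, and a spot can also bind the cDNA of a related or overlapping gene. The 8 genes have different tasks in the cell. Cndp2 is a cytosolic dipeptidase, and Slco2b1 is an organic anion transporter of the cell membrane. Scarb2 is the lysosomal membrane protein that carries glucocerebrosidase to lysosomes. Wwp2 is a ubiquitin ligase of the Nedd4 type, St13 is a cochaperone that binds Hsp70, and Kifc3 is a kinesin motor that moves to the minus end of microtubules. Calm3 is among the genes that encode calmodulin, the calcium sensor, and Nrxn2 encodes a neurexin, known as an adhesion protein of presynaptic nerve endings.

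The direction of the ratio is not in the labels and was read from textbook markers. The deposited value of albumin (Alb), the hepatocyte plasma protein, averaged 8.21 on kidney arrays and -7.57 on liver arrays, and that of the kidney transcript Kap averaged -6.02 on kidney arrays and 6.08 on liver arrays. The numerator was thus taken to be the pool, against the order of the titles. The order of the titles would exchange the words kidney and liver throughout and leave every size as it is. Under this reading 6 of 6 proximal tubule probes and 3 of 3 distal nephron probes were higher in kidney and 7 of 7 hepatocyte probes were higher in liver, which is not independent evidence of the direction. Probes of macrophage markers were higher in liver, 3 of 3 with a median of -1.91, and neuron markers Tubb3 (-0.73) and Syp (0.06) did not pass. In whole organs fewer cells of a type and less RNA per cell cannot be told apart.

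The median log2 ratio was within 0.00267 of 0 on the 10 arrays of mice 1 and 3, but lay between -1.49 and -1.19 on the 6 arrays of mouse 2. Values were used as deposited, and values with each array centred on its median are given where they are called centred. Spreads and orders of the mice are as deposited unless called centred, and centring can change the place of mouse 2 in them. Centring moved the median over all tested probes to -0.06, against -0.53 as deposited. The gap between probes of a gene on the same array does not depend on centring, but a shift of mouse 2 that differs between the probes stays in it.

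Of the 19 probes, 8 passed as higher in kidney, 8 passed as higher in liver and 3 did not pass (limma on the 6 averages, Benjamini-Hochberg adjusted p under 0.05). The share of all 18670 tested probes past the threshold was 12.6%, made up of 5.18% on the kidney side and 7.45% on the liver side. The members were chosen on these calls, so nothing is read from the difference. Each of the 16 probes that passed had the same sign on every array that measured it. All 19 probes were tested, 18 of them with a value in all 6 averages, and probe 2199 of Slco2b1 lacked a value in the kidney of mouse 3.

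**Figure D1:**
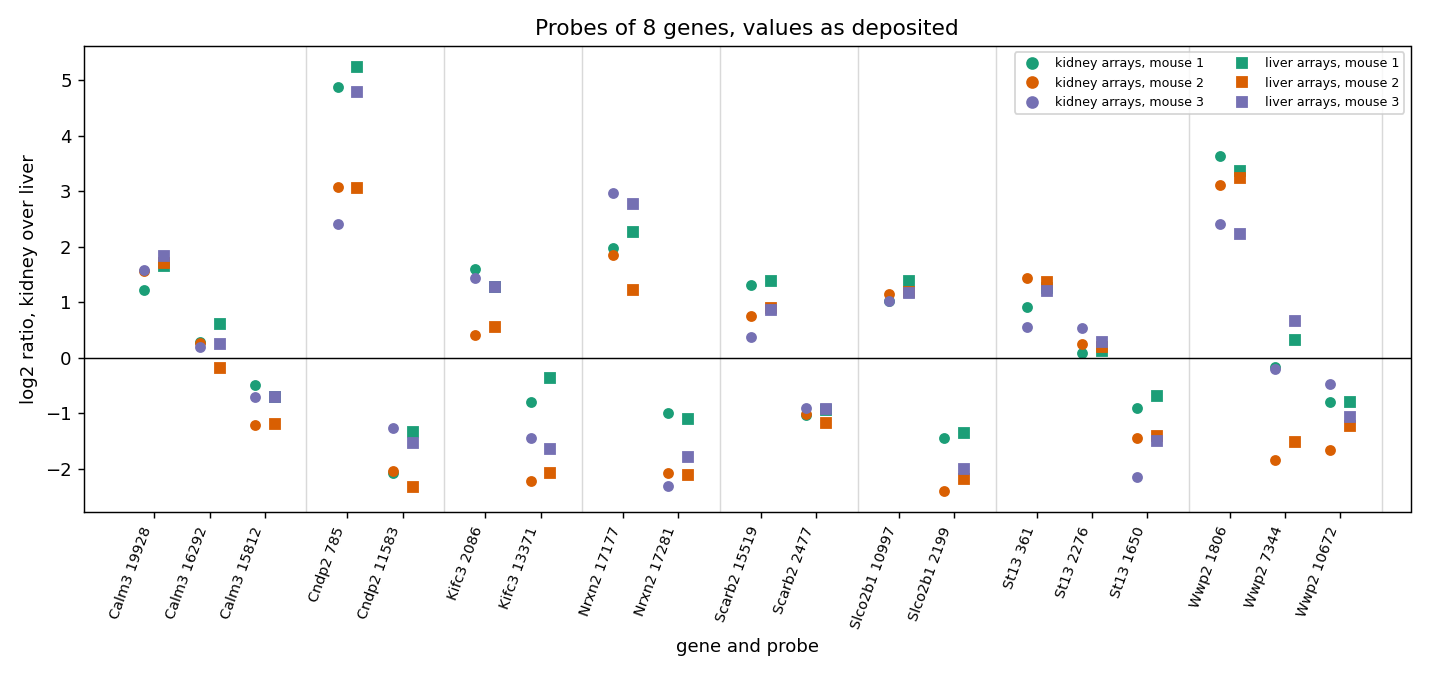
Values of the 19 probes of the 8 genes as deposited, turned to log2 ratios of kidney over liver. Each point is an average of a mouse from kidney arrays or from liver arrays, and within every gene the probes lie on opposite sides of 0, furthest apart in Cndp2 (mean 3.91 against -1.76).

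Cndp2, the dipeptidase, had the widest split of the 8 genes. Probe 785 gave 4.87, 3.08 and 2.41 in kidney arrays of mice 1, 2 and 3, and 5.23, 3.07 and 4.78 in liver arrays of the same mice. Its mean was 3.91 ± 1.19 (SD, n = 6 averages), 15.0-fold higher in kidney. Both kinds of array placed all 3 mice far above 0, and the ranges of the kidney and liver arrays overlapped. Probe 11583 gave -2.07, -2.04 and -1.26 in kidney arrays and -1.33, -2.32 and -1.53 in liver arrays. Its mean of -1.76 ± 0.44 (SD, n = 6) is 3.38-fold higher in liver, and none of its averages came near those of probe 785. Probe 785 lists a RefSeq transcript of the gene, whereas probe 11583 lists expressed sequence tags (ESTs) only.

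Cndp2 also had the largest gap between probes, 5.67 ± 1.20 (SD, n = 6), which is 50.8-fold. Over the 15 arrays with both probes the gap lay between 3.68 and 7.27. The value at the low end came from the single kidney array of mouse 3, where probe 785 was lowest. Centred, the 2 probes averaged 4.36 and -1.31.

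As deposited, Slco2b1, the organic anion transporter, was the most even of the genes on its kidney side. Probe 10997 gave 1.02, 1.15 and 1.02 in kidney arrays and 1.38, 1.19 and 1.17 in liver arrays, a mean of 1.16 ± 0.13 (SD, n = 6) or 2.23-fold. As deposited, the 3 averages from liver arrays lay slightly above those from kidney arrays, while single arrays of the 2 kinds overlapped. Centred, probe 10997 averaged 1.61 ± 0.72 (SD, n = 6), with mouse 2 at 2.52 in kidney arrays and 2.53 in liver arrays. The smallest centred SD on the kidney side was 0.26, for probe 2086 of Kifc3. Probe 2199 gave -1.44 and -2.39 in kidney arrays of mice 1 and 2, and -1.36, -2.18 and -2.01 in liver arrays of mice 1, 2 and 3. Its mean was -1.88 ± 0.46 (SD, n = 5), 3.69-fold higher in liver, and its kidney and liver arrays overlapped. The gap was 3.06 ± 0.45 (SD, n = 5), 8.33-fold, and ranged from 2.34 to 3.74 over 15 arrays.

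Scarb2, the lysosomal membrane protein, had the smallest gap. Probe 15519 gave 1.32, 0.76 and 0.37 in kidney arrays and 1.38, 0.89 and 0.85 in liver arrays, a mean of 0.93 ± 0.37 (SD, n = 6) or 1.90-fold. As deposited, mouse 1 was highest and mouse 3 lowest in both kinds of array. Centred, mouse 2 was highest in both, at 2.13 in kidney arrays and 2.23 in liver arrays. Probe 2477 gave -1.02, -1.02 and -0.90 in kidney arrays and -0.94, -1.18 and -0.91 in liver arrays, a mean of -0.99 ± 0.10 (SD, n = 6) or 1.99-fold higher in liver. These 6 averages had the smallest spread among the 19 probes as deposited, while their centred SD was 0.62. The gap was 1.92 ± 0.40 (SD, n = 6), 3.79-fold, and ranged from 1.28 to 2.57 over 16 arrays. Centring left probe 2477 at a mean of -0.54 with 4 averages below 0 and 2 above.

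Wwp2, the ubiquitin ligase, had 3 probes, called on the kidney side (1806), on the liver side (10672) and on neither (7344). Probe 1806 gave 3.63, 3.11 and 2.42 in kidney arrays and 3.36, 3.25 and 2.24 in liver arrays, a mean of 3.00 ± 0.55 (SD, n = 6) or 8.0-fold. As deposited, mouse 1 was highest and mouse 3 lowest in both kinds of array. Centred, mouse 2 was highest in both, at 4.48 in kidney arrays and 4.58 in liver arrays. Probe 10672 gave -0.79, -1.66 and -0.47 in kidney arrays and -0.80, -1.23 and -1.07 in liver arrays, a mean of -1.0 ± 0.42 (SD, n = 6) or 2.0-fold higher in liver. Centred, its mean was -0.55, with 5 averages below 0 and 1 above. Probe 7344 gave -0.17, -1.85 and -0.20 in kidney arrays and 0.32, -1.52 and 0.67 in liver arrays, a mean of -0.46 ± 1.01 (SD, n = 6), and did not pass. Its low values are the 2 averages of mouse 2, and centred its mean was near 0 (-0.0038). Between probes 1806 and 10672 the gap was 4.00 ± 0.74 (SD, n = 6), 16.0-fold, with a range of 2.88 to 5.07 over 16 arrays.

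St13, the Hsp70 cochaperone, had 2 probes on the kidney side of 0. Probe 361 gave 0.92, 1.44 and 0.56 in kidney arrays and 1.26, 1.36 and 1.21 in liver arrays, a mean of 1.13 ± 0.33 (SD, n = 6) or 2.18-fold. Probe 2276 gave 0.09, 0.24 and 0.54 in kidney arrays and 0.12, 0.20 and 0.28 in liver arrays, a mean of 0.25 ± 0.16 (SD, n = 6), and did not pass. Its highest average lay just below the lowest of probe 361, although both list the same full-length cDNA. Probe 1650 gave -0.90, -1.44 and -2.14 in kidney arrays and -0.68, -1.40 and -1.51 in liver arrays, a mean of -1.34 ± 0.51 (SD, n = 6) or 2.54-fold higher in liver. As deposited, mouse 1 was nearest to 0 and mouse 3 furthest from it in both kinds of array. Centred, mouse 2 was nearest to 0 on probe 1650, at -0.07 in both kinds. The gap between probes 361 and 1650 was 2.46 ± 0.48 (SD, n = 6), 5.51-fold, and ranged from 1.46 to 3.04 over 15 arrays.

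Kifc3, the kinesin, had values of similar size on both sides. Probe 2086 gave 1.61, 0.41 and 1.43 in kidney arrays and 1.28, 0.56 and 1.27 in liver arrays, a mean of 1.09 ± 0.49 (SD, n = 6) or 2.13-fold. Probe 13371 gave -0.80, -2.22 and -1.44 in kidney arrays and -0.36, -2.08 and -1.65 in liver arrays, a mean of -1.43 ± 0.73 (SD, n = 6) or 2.69-fold higher in liver. As deposited, mouse 2 was lowest for both probes in both kinds of array, in the direction of the lower medians of its arrays. Centred, mouse 2 was highest on probe 2086 in both kinds (1.78 and 1.89), and mouse 3 was lowest on probe 13371 (-1.44 and -1.65). The gap was 2.52 ± 0.47 (SD, n = 6), 5.73-fold, and ranged from 1.45 to 3.90 over 16 arrays. The annotation lists a common EST for the 2 probes.

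Calm3, the calmodulin gene, had a probe on either side of 0 and another between them. Probe 19928 gave 1.23, 1.56 and 1.58 in kidney arrays and 1.66, 1.71 and 1.82 in liver arrays, a mean of 1.59 ± 0.20 (SD, n = 6) or 3.02-fold. As deposited, the averages from liver arrays lay above those from kidney arrays, while single arrays of the 2 kinds overlapped. Probe 16292 gave 0.28, 0.27 and 0.19 in kidney arrays and 0.62, -0.19 and 0.25 in liver arrays, a mean of 0.24 ± 0.26 (SD, n = 6), and did not pass. Probe 15812, which lists a RefSeq transcript, gave -0.48, -1.20 and -0.70 in kidney arrays and -0.70, -1.19 and -0.70 in liver arrays, a mean of -0.83 ± 0.30 (SD, n = 6) or 1.78-fold higher in liver. As deposited, mouse 2 was lowest on it in both kinds of array. Centred, its mean was -0.38, with 4 averages below 0 and the 2 of mouse 2 above. The gap between probes 19928 and 15812 was 2.43 ± 0.43 (SD, n = 6), 5.38-fold, with a range of 1.46 to 3.57 over 15 arrays.

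Nrxn2, the neurexin, had both of its probes among the bright ones. Probe 17177 gave 1.97, 1.84 and 2.96 in kidney arrays and 2.26, 1.22 and 2.77 in liver arrays, a mean of 2.17 ± 0.64 (SD, n = 6) or 4.51-fold. Probe 17281 gave -1.0, -2.08 and -2.32 in kidney arrays and -1.09, -2.10 and -1.78 in liver arrays, a mean of -1.73 ± 0.56 (SD, n = 6) or 3.32-fold higher in liver. As deposited, mouse 3 was highest and mouse 2 lowest on probe 17177, while mouse 1 was nearest to 0 on probe 17281, in both kinds of array. Centred, mouse 2 was highest on probe 17177 in kidney arrays (3.21) and nearest to 0 on probe 17281 in both kinds (-0.71 and -0.77). The gap was 3.88 ± 0.91 (SD, n = 6), 14.7-fold, and ranged from 2.70 to 5.28 over 15 arrays. Centring left the probes at 2.62 and -1.28.

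**Figure D2:**
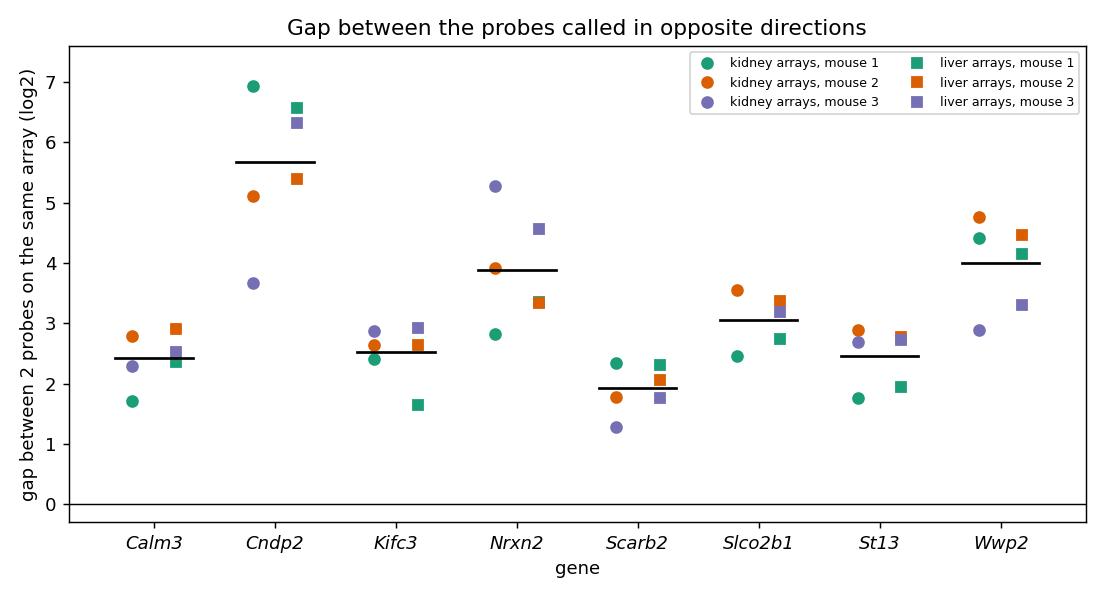
Gap between the kidney-side and the liver-side probe of each gene, in log2 units, as the value of the first minus the value of the second on the same array. Points are averages of a mouse from kidney arrays or liver arrays, and the means run from 1.92 in Scarb2 to 5.67 in Cndp2.

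In order of size the gaps ran Cndp2, Wwp2, Nrxn2, Slco2b1, Kifc3, St13, Calm3 and Scarb2, with a median of 2.79. Cndp2 (5.67 ± 1.20) stood above Wwp2 (4.00 ± 0.74) by more than either SD. Neighbouring means from Wwp2 to Nrxn2 and from Kifc3 through St13 to Calm3 differed by less than their SD. The gap was larger in mouse 2 than in mice 1 and 3 for Wwp2 (4.62 against 3.69) and Slco2b1 (3.46 against 2.79). The same held for Calm3 (2.85 against 2.22), St13 (2.82 against 2.28) and Kifc3 (2.64 against 2.46). It was smaller in mouse 2 for Cndp2 (5.25 against 5.87) and Nrxn2 (3.63 against 4.01), and nearly equal for Scarb2 (1.921 against 1.925). The gap was above 0 on 123 of 123 pairings of a gene and an array with both probes, a direction that the choice of members largely fixes. After centring, the probes of Cndp2, Kifc3, Nrxn2 and Slco2b1 had opposite signs on all arrays with both. The same held on 12 of 15 arrays for Calm3, 11 of 16 for Scarb2, 12 of 15 for St13 and 13 of 16 for Wwp2.

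**Figure D3:**
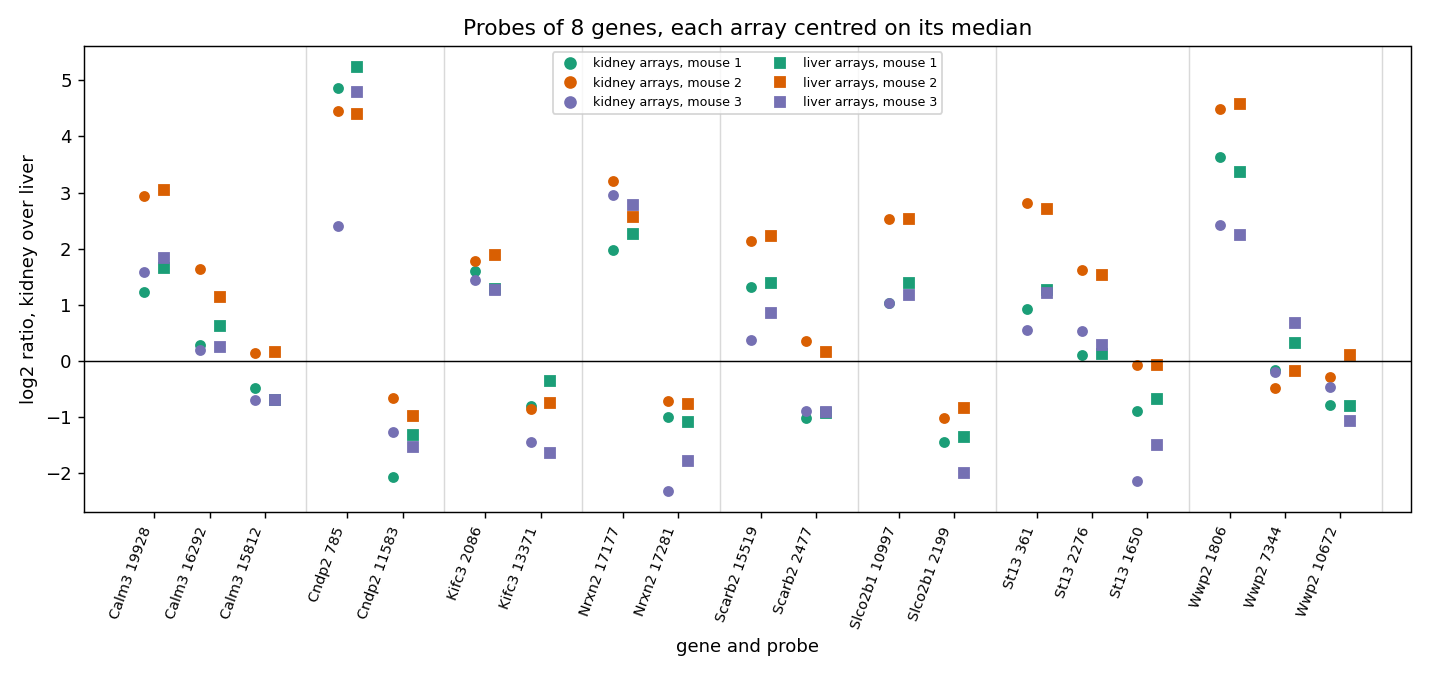
The same 19 probes after each array was centred on its median, as log2 ratios of kidney over liver. The kidney-side probes stay above 0 (means from 1.38 to 4.36), while those of Calm3 (probe 15812), Scarb2 (probe 2477) and Wwp2 (probe 10672) on the liver side have averages on both sides of 0.

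With centred arrays the test passed for 8 of the 8 kidney-side probes and 6 of the 8 liver-side probes. The share over all probes was then 29.2%, of which 17.8% lay on the kidney side and 11.3% on the liver side. Probes 15812 of Calm3 (adjusted p = 0.127) and 2477 of Scarb2 (adjusted p = 0.101) were the liver-side probes that did not pass with centred arrays in limma. Probe 16292 of Calm3 then joined the kidney side, with a mean of 0.69. The liver-side probes were lower in mouse 2 than in mice 1 and 3 by a median of 0.59 as deposited (-0.59), the kidney-side probes by 0.067 (-0.067). Single kidney-side probes ranged from -1.25 (probe 785 of Cndp2) to 0.42 (probe 361 of St13). Those of the liver side ranged from -1.09 (probe 13371 of Kifc3) to -0.11 (probe 1650 of St13). Over all probes this shift was -0.28 for bright and -1.49 for dim probes.

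Brightness also differed between the sides. The files hold ratios and no intensities, so signal was judged from how often a probe's value recurs exactly on the same array, a sign of small whole-number intensities that is taken from the same ratios. A probe was bright where at most 10% of its values recurred and dim where over 50% did. All 8 kidney-side probes were bright, with 0% recurring. On the liver side only probe 17281 of Nrxn2 was bright, and the other 7 lay between, with up to 50% recurring. Of the probes that did not pass, 7344 of Wwp2 was dim (66.7% recurring), 16292 of Calm3 lay between and 2276 of St13 was bright. Among all probes that passed, 79.5% of those higher in kidney and 46.7% of those higher in liver were bright. The part of low signal in the liver-side values was not tested.

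Beyond the 8 genes, few genes had enough probes past the test to be able to disagree. More than 1 probe was tested for 1523 genes, and in 60 of them at least 2 passed. Their probes pointed the same way in 52 genes and in opposite ways in the 8 described here, which is 13.3% of the 60. With the mouse number as a block, since the same animals gave both organs, Cndp2 and Nrxn2 were the 2 genes left with opposite calls, and without mouse 1 or without mouse 3 a single gene was left (Nrxn2 without mouse 1, Cndp2 without mouse 3). Nearest inside the threshold were Scarb2, whose weaker probe had an adjusted p of 0.0321 in limma, and Calm3, at 0.0426. Nearest outside were Spatc1l with probes at 1.46 and -0.78, Hmgn2 at 0.93 and -1.13, and Col1a2 at 1.19 and -0.85. Their weaker probes had adjusted p-values of 0.0563, 0.0569 and 0.0603 in limma.

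**Figure D4:**
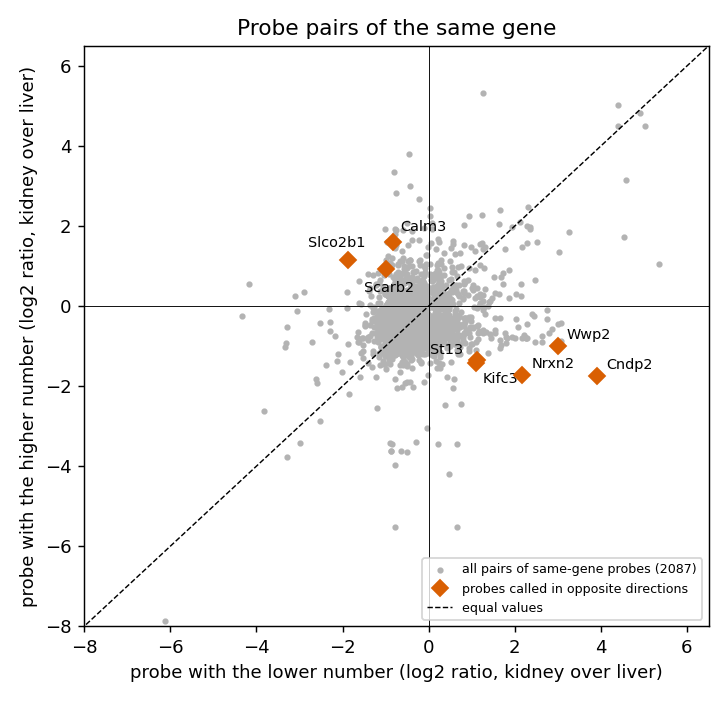
Each point is a pair of probes with the same gene symbol, with the log2 ratio of kidney over liver of the lower-numbered probe across and that of the higher-numbered probe up. The 8 marked pairs, the kidney-side and the liver-side probe of each gene described, lie in the quadrants of opposite sign, where other pairs lie that did not pass the test on both sides.

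Disagreement in size was common among genes with several probes. The largest gap within a gene had a median of 0.53 over the 1523 genes and a 90th percentile of 1.57, against a median of 2.78 in the 8 genes. The gap reached that of Scarb2 (1.92) in 95 other genes, and in 539 genes the tested probes had means of opposite sign. Over all 2087 pairs of probes of a gene the median difference was 0.48, and 20.8% of pairs differed by more than 1. For the 306 pairs that list a common accession the median was 0.47 and 19.0% differed by more than 1. For the 76 pairs of bright probes the values were 0.62 and 28.9%.

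The annotation was thin for the 19 probes as for all probes with a single symbol. By their listed accessions 15 probes rest on ESTs alone, 2 on a full-length cDNA and 2 on a RefSeq transcript, and over all probes the shares were 69.1%, 17.4% and 13.5%. RefSeq holds more than 1 curated transcript for 4 of the 8 genes, 9 for Kifc3, 4 for Nrxn2, 3 for Slco2b1 and 2 for Cndp2. Among 1516 genes with several probes 54.8% had more than 1. The sequences of the spotted clones were not used here, so which transcript stretch each probe lies on was not tested.

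Whether the split depended on which organ supplied the single animal was tested with the term for the kind of array, which the choice of genes did not use. Without the mouse as a block, none of the 19 probes passed in limma, with 0 of 19 below an unadjusted p of 0.05 and all adjusted p-values at 1. Over all probes 0% passed this test, and 46 (0.246%) had an unadjusted p below 0.05. The same 3 mice are on both kinds of array, and with the mouse as a block 12 of 18508 probes passed (0.0648%) and 8.22% had an unadjusted p below 0.05. Of the member probes 0 of 19 then passed in limma (lowest adjusted p = 0.586), and 2 of 19 had an unadjusted p below 0.05, probe 7344 of Wwp2 and probe 785 of Cndp2. The largest differences among the members, kidney arrays minus liver arrays, were -0.91 for probe 785 of Cndp2 (SE 0.79, and 0.39 with the block) and -0.57 for probe 7344 of Wwp2 (SE 0.73, and 0.18 with the block). Probe 7344 was lower on kidney arrays than on liver arrays in 3 of 3 mice and probe 785 in 2 of 3. The mean gap of Cndp2 was 5.24 on kidney arrays and 6.09 on liver arrays, that of Wwp2 was 4.02 on kidney arrays and 3.98 on liver arrays, and that of St13 was 2.45 on kidney arrays and 2.48 on liver arrays. With 3 mice for each kind of array, an adjusted p above the threshold does not show that the kinds of array gave equal values.

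Differences between the mice were tested within each kind of array on single centred arrays, where the p-value sets RNA samples against hybridisation error. Over the 3 mice 14 of 18 member probes differed on kidney arrays and 16 of 19 on liver arrays, beside 49.9% and 40.2% of all probes tested on kidney arrays and on liver arrays (limma moderated F). As deposited, 11 of 18 and 12 of 19 differed, beside 73.9% on kidney arrays and 86.9% on liver arrays of all probes. All arrays of mouse 2 had lower medians, with a median shift of -0.28 for bright and -1.49 for dim probes. Centring on the median does not remove a shift that depends on brightness. A difference of mouse 2 therefore cannot be told apart from a difference of its arrays, and nothing is read from the member shares. Mouse 1 against mouse 3, the animals whose arrays had medians at 0, differed in 0 of 18 on kidney arrays (0.0208% of all probes) and in 2 of 19 on liver arrays (1.31% of all probes). On kidney arrays the lowest adjusted p of a member was 0.114 in limma, for probe 785 of Cndp2. On liver arrays the 2 probes were 1806 of Wwp2, centred means of 3.36 in mouse 1 and 2.24 in mouse 3, and 1650 of St13, -0.68 in mouse 1 and -1.50 in mouse 3, both with an adjusted p of 0.042 in limma.

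Related genes give the levels of each family outside the chosen probes. Of 57 relatives listed for the 8 genes, 29 had a tested probe, 34 probes in all. Higher in kidney were 5 of these probes and higher in liver 3 (23.5% of the list, beside 12.6% of all probes), with a median of -0.43 against -0.53 over all probes. The list was drawn up with earlier results of these data known.

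In the calmodulin family, the calmodulin-like gene Calml4, known from the intestinal brush border, was higher in kidney by 4.62 (SE 0.35, adjusted p = 5.67e-05, limma). The calmodulin gene Calm2 had a mean of -0.46 and Calml3 of -0.18, and neither passed, so the 3 probes of Calm3 spanned values on both sides of these relatives. Acy1, the aminoacylase and a relative of Cndp2, was higher in kidney by 2.09 (SE 0.21, adjusted p = 0.000341, limma), on the side of probe 785, while the other relative tested, Pm20d1 (0.67), did not pass. Slco1a6, an organic anion transporter, was higher in kidney by 2.25 (SE 0.20, adjusted p = 0.000167, limma), on the side of probe 10997 of Slco2b1. The other 3 Slco probes, of Slco6d1 (0.17), Slco4a1 (-0.06) and Slco1c1 (-0.69), did not pass, and the median of the 4 was 0.06. Scarb1, the receptor for high-density lipoprotein, was higher in kidney by 0.91 (SE 0.20, adjusted p = 0.0229, limma), and lost its call with the mouse number as a block (adjusted p = 0.37).

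Among the Nedd4-type ligases the relatives of Wwp2 split as well. Nedd4 was higher in liver (-3.82, SE 0.22, adjusted p = 1.42e-05, limma), and so was probe 13174 of Smurf2 (-1.56, SE 0.24, adjusted p = 0.00334, limma), whose other probe had -0.39 and did not pass. Wwp1, a close relative of Wwp2, was higher in kidney by 0.86 (SE 0.23, adjusted p = 0.0434, limma), a call lost with the block (adjusted p = 0.381). Among the chaperone partners of St13, Hsp90aa1, an Hsp90 gene, was higher in liver (-1.44, SE 0.28, n = 5, adjusted p = 0.0147, limma), also lost with the block (adjusted p = 0.19). The Hsp70 gene Hspa8 (0.52) and the cochaperone Stip1 (-0.37) did not pass. Stub1, a ubiquitin ligase that acts with Hsp70, was the relative whose own probes differed in sign, 0.51 and -0.94, and neither passed. The kinesins Kifc2 (-0.59) and Kifc5b (-0.50) and the neuroligin Nlgn3 (-0.65) did not pass.

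Genes beside the members on the chromosome were read for values of their own, with neighbours taken from RefSeq. Slc22a12, the urate transporter of the proximal tubule, lies beside Nrxn2. Its probe gave 3.37, 3.82 and 4.86 in kidney arrays of mice 1, 2 and 3, and 4.27, 3.55 and 4.45 in liver arrays, a mean of 4.05 ± 0.57 (SD, n = 6; adjusted p = 2.79e-05, limma). As deposited, mouse 3 was highest in both kinds of array for Slc22a12 and for probe 17177 of Nrxn2. Centred, mouse 2 was highest for probe 17177 on kidney arrays (3.21, against 2.96 in mouse 3). Mouse 3 was highest for it on liver arrays (2.78, against 2.56 in mouse 2). Centring raises mouse 2 for Slc22a12 as well, so the order of its mice can also change. The 2 probes kept the same sign in all 6 averages as deposited. Whether the 2 genes vary together between mice was not tested. Rasgrp2, on the other side of Nrxn2, had -0.85 (n = 5) and did not pass.

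**Figure D5:**
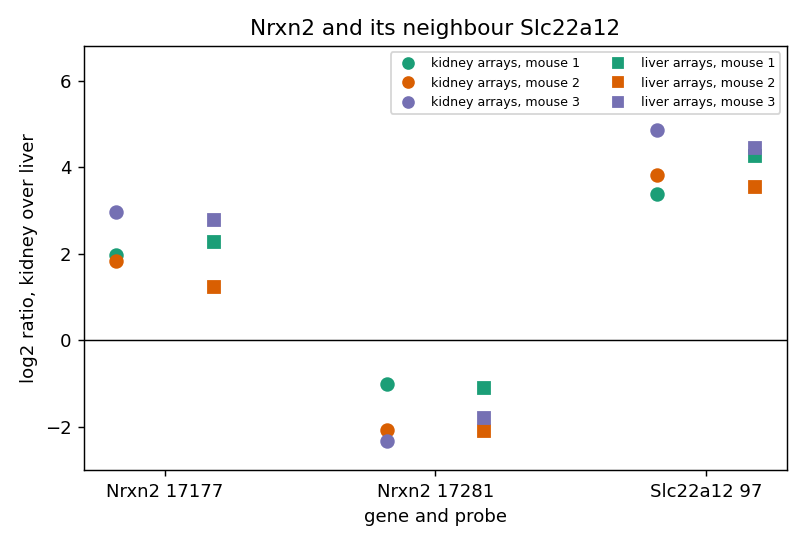
Log2 ratios of kidney over liver for both probes of Nrxn2 and for the probe of its neighbour Slc22a12, a point per mouse from kidney arrays or from liver arrays. Probe 17177 (mean 2.17) and Slc22a12 (mean 4.05) lie above 0 in all 6 averages and probe 17281 (mean -1.73) lies below 0 in all 6.

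Pnmal2, beside Calm3, was higher in kidney by 0.80 (adjusted p = 0.0469, limma), a call lost with the block (adjusted p = 0.388). Drc7 beside Kifc3 (-0.70) and Nob1 (0.21) and Psmd7 (0.12) beside Wwp2 did not pass. Cndp1 and Dipk1c beside Cndp2 had no probe with their single symbol, and the same held for the microRNA genes Mir140 within Wwp2 and Mir6415 within Scarb2. Binding of neighbouring transcripts to the member probes was not tested.

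The probes of other genes most like each member probe were found by the root mean square (RMS) difference over the 6 centred averages, among 8686 to 8688 probes. Probe 785 of Cndp2 had no close companion, with Thg1l at an RMS of 0.76 and Umod, the loop of Henle gene for uromodulin, at 0.91. Probe 1806 of Wwp2 was nearest to Nkain1 (0.46) and Bdh2 (0.50). Probe 17177 of Nrxn2 was nearest to Nat8f3 (0.24) and Pfkp, a phosphofructokinase (0.25), and probe 17281 to Ctnnal1 (0.23) and Dzip1 (0.23). Probe 10997 of Slco2b1 was nearest to Rbm47 (0.085) and Ccdc88b (0.096), and probe 19928 of Calm3 to Xbp1 (0.20), a transcription factor of the unfolded protein response, and Tceal9 (0.22). On the kidney side probe 361 of St13 was nearest to Mfhas1 (0.13) and the glycolytic gene Pgk1 (0.14), probe 15519 of Scarb2 to Ran (0.13) and Dnajc15 (0.16), and probe 2086 of Kifc3 to Mcur1 (0.15) and Nrip3 (0.18). On the liver side probe 11583 of Cndp2 was nearest to Pla2g6 (0.22) and Elf2 (0.25), and probe 1650 of St13 to the carboxylesterase Ces1e (0.14) and Phactr1 (0.18). Probe 15812 of Calm3 was nearest to Ints10 (0.077) and Susd6 (0.13), probe 13371 of Kifc3 to Slc25a18 (0.17) and Nbr1 (0.20), probe 10672 of Wwp2 to Hlcs (0.13) and Carhsp1 (0.14), and probe 2477 of Scarb2 to 1700012D01Rik (0.12) and Echdc3 (0.13). Probe 2199 of Slco2b1, with a value in 5 averages, was not compared. With 6 averages from 3 mice, a small RMS describes similar ratios and nothing further.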

How the data were processed

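Values are log2 ratios of both channels as deposited. Per the labels' protocols, each labelling with Cy3 or Cy5 started from 20 µg of total RNA, slides were scanned with a GenePix 4000A, and GenePix Pro 3.0 gave background-subtracted mean intensities normalised to a median ratio of 1. The dye of each sample and the log base are not given in the sources used here. The base was read from the values, where 140 of 144 spacings were log2 of ratios of whole numbers up to 10 within 1e-04, while 0 fitted the natural logarithm and 16 fitted log10.

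Symbols came from the platform annotation, which gives 1 symbol for 11723 probes, several for 806 and none for 7890, and 11590 of the first matched RefSeq (GRCm38.p6). After repeat hybridisations had been averaged, the 6 averages were fitted in limma 3.58.1 (R 4.3.3) with an overall mean and a term for array kind, for probes measured in 2 or more mice of each organ. P-values are two-sided, adjusted by Benjamini-Hochberg at 0.05. Bright (2967) and dim (7126) probes were judged on a minimum of 8 values among 10 arrays (mice 1 and 3). The pools give no estimate of spread, and the number of arrays and mice limits the precision. The fit was tested on simulated data. Plots were made in matplotlib 3.10.9.

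Per the labels a mouse number is an animal, found on both kinds of array. An animal's deviations were taken from the mean of the other animals, so the shifted arrays of mouse 2 enter each correlation given here. Over 14688 probes and as sample over pool, deviations on kidney arrays correlated with those on liver arrays at -0.591 (mouse 1), -0.795 (mouse 2) and -0.585 (mouse 3). These are positive as kidney over liver. The fit without the mouse as a block therefore gives SE and p-values that tend to be too small for kidney against liver and too large for the term for array kind. Alternatives were centring, quantile normalization, the mouse as a block, leaving out a mouse, other variance models and filters, and each kind of array alone.

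The members, the lists of relatives and markers and the tests were chosen with earlier results of these data known. Named genes are the members, relatives with a probe that passed or whose probes differ in sign, the 3 genes nearest outside the threshold, the 2 nearest probes of each member probe that passed, and genes beside or overlapping a member. Relatives and markers that did not pass and are named with a value were added beyond this rule after their values were seen.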

Additional observations from a re-analysis of the deposited data

How the results depend on the processing

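Probes that passed between kidney and liver numbered 2358 as deposited, 5445 with centred arrays, 13609 after quantile normalization, 968 with a replicate block for the mouse, 774 on kidney arrays alone and 1543 on liver arrays alone. Leaving out a mouse gave 700 to 4873, the highest without mouse 2. Genes with probes past the test in opposite directions numbered 8 as deposited. There were 57 with centring (6 of the 8 members among them), 210 with quantile normalization (8 members), 14 with trend and robust variances (6 members), 2 with the replicate block, 2 on kidney arrays alone and 2 on liver arrays alone (Cndp2 and Nrxn2 each time). Leaving out a mouse gave 1 to 53, with Nrxn2 left without mouse 1, 7 members among 53 without mouse 2 and Cndp2 left without mouse 3. Bright probes alone gave 6 genes, of which Nrxn2 is a member, the only member whose liver-side probe is bright. Relatives that passed numbered 8 as deposited and 27 with quantile normalization, 7 of these higher in kidney and 20 higher in liver. There were 5 with the replicate block and 4 on kidney arrays alone. Leaving out a mouse gave 4 to 10 relatives (4 without mouse 1, 4 without mouse 3). Between kinds of array 0 probes passed as deposited, 11 with quantile normalization, 12 with the replicate block, 2 with trend and robust variances and 1 among bright probes. Between mice, 7099 passed on kidney arrays (3 to 7962 with a mouse left out, lowest without mouse 2), and on liver arrays 7147 (244 to 6555 with a mouse left out, lowest without mouse 2, and 15433 as deposited). Of the 16 member probes that passed, 6 remained with the replicate block, 14 with centring, 6 without mouse 1, 5 without mouse 3, 5 on kidney arrays alone and 8 on liver arrays alone. No value changed sign among those computed for members and relatives that passed. The median gap over the 8 genes stayed between 2.63 and 3.06 in the alternatives run, against 2.79. Where a call was lost the cause was not tested. Fits without a mouse or on a single kind of array also hold fewer averages. With a mouse left out, 700 probes passed without mouse 1, 4873 without mouse 2 and 799 without mouse 3. Without intensities, signal over background could not be measured.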

Other observations

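Among bright probes alone, tested apart from the rest, 6 genes had probes past the test in opposite directions, and 5 of them are outside the 8 genes above. They were named after their values were seen. Rcc1, the exchange factor of the small GTPase Ran, had probes at 0.47 ± 0.23 and -4.20 ± 0.59 (SD, n = 6 averages each), with adjusted p-values of 0.0113 and 3.37e-06 in limma. Wasf2, a regulator of actin branching, had 0.56 ± 0.47 and -4.16 ± 0.54 (SD, n = 6), with adjusted p-values of 0.0308 and 2.48e-06 in limma. In the test over all probes the kidney-side probes of both genes missed the threshold, with adjusted p-values of 0.151 for Rcc1 and 0.147 for Wasf2 (limma). Itgb1, the integrin beta 1 chain, had 1.53 ± 0.50 and -0.31 ± 0.17, Hmgn2, a nucleosome-binding protein, had 0.93 ± 0.23 and -1.13 ± 0.83, and Spatc1l had 1.46 ± 0.28 and -0.78 ± 0.33 (SD, n = 6). Their liver-side probes missed the threshold over all probes as well, with adjusted p-values of 0.26 for Itgb1, 0.0569 for Hmgn2 and 0.0563 for Spatc1l (limma).

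Over 13 settings of the kidney and liver test, the one described and 12 alternatives, Nrxn2 had probes called in opposite directions in 12 and Cndp2 in 11. Kifc3 and St13 followed with 7, Scarb2 and Wwp2 with 6, and Calm3 and Slco2b1 with 5. Not every probe was tested in every setting, so these counts do not rank the genes. Probe 2199 of Slco2b1 was not tested without mouse 1, without mouse 2, among probes with all 6 averages or among bright probes. Among bright probes alone, every member but Nrxn2 lacked its liver-side probe. Outside the 8, Hmgn2 had such calls in 6 settings, as many as Scarb2 and Wwp2, and Maea in 5, as many as Calm3 and Slco2b1.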
